A study of Neurospora crassa with 12 samples.

Results

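The genes analysed here encode 4 histone methyltransferases of euchromatin in the filamentous fungus Neurospora crassa. They are set-1 (NCU01206), set-2 (NCU00269), dot-1 (NCU06266) and ash1 (NCU01932), and they were picked by name, with no measured value, from the 9730 annotated genes of the deposited annotation. Each had 1 annotated transcript. To these were added the unannotated transcripts that overlapped a gene of the set or lay within 2 kb of it on either strand, which gave 19 unannotated and 4 annotated transcripts out of 21475 in all. The RefSeq gene table lists the same ends for all 4 genes, names NCU01932 set-3 and gives NCU06266 no symbol.

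The RNA came from mycelia of Δset-1, Δdim-5 and WT cultures grown for 2 days at 25 °C. Each strain was harvested either after 30 min of light that followed the dark period (LP30) or after 24 h of constant darkness (DD24), with 2 replicates in each of the 6 groups (12 libraries). The Δset-1 strain lacks the H3K4 methyltransferase gene and the Δdim-5 strain the H3K9 methyltransferase gene. Both were knockout strains that had been crossed back to the WT strain, and each genotype is represented by 1 strain. The data used were 1 transcript annotation, made by merging the assemblies of the single samples with the reference annotation, and the RefSeq gene table for names and chromosomes. The merged annotation gives positions, strands and exons but no expression level and no record of the library in which a transcript was found. From it the read coverage at a locus is unknown, strains and harvest times could not be compared, and the loss of set-1 RNA in the Δset-1 libraries could not be checked. Since set-1 is deleted in 4 of the 12 libraries, its locus was covered by intact genes in at most the other 8.

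SET-1 is the catalytic subunit of the COMPASS complex, which places the H3K4 methyl mark on histone H3 near the starts of active genes. SET-2 travels with elongating RNA polymerase II and places H3K36 methylation along gene bodies. ASH1 also places H3K36 methylation, and both proteins carry the catalytic SET domain, as SET-1 does. DOT-1 places H3K79 methylation in the core of the histone and belongs to a different enzyme family without a SET domain. In budding yeast, ubiquitylation of histone H2B is needed for both H3K4 and H3K79 methylation.

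All 4 genes were longer than the median gene. The exonic length was 5510 nt for set-1, 4954 nt for ash1, 4334 nt for set-2 and 2706 nt for dot-1, against a median of 1940 nt over all annotated genes. In set-1 that length exceeded 97.6% of genes, in ash1 96.1%, in set-2 93.3% and in dot-1 72.6%. The number of exons was 4 in ash1, 3 in set-1, 3 in set-2 and 2 in dot-1, where the median gene had 2. The large middle exon of set-1, exon 2, measured 3121 bp and was longer than 97.3% of annotated exons, and exon 2 of ash1 with 2496 bp was longer than 94.9%. The genes also differed in their spacing. The ash1 gene stood alone, with 1874 bp free of annotated genes upstream and 8679 bp downstream, and the downstream gap was wider than at 97.9% of genes. At set-2 the gaps were 3708 and 1137 bp, and at set-1 they were 429 and 610 bp. The median gap over all genes was 781 bp upstream and 477 bp downstream. The dot-1 gene was the most crowded, since its start lay 38 bp from that of one neighbour and its 3′ part overlapped another.

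The maps of the 4 loci show what was assembled beside the annotated models. Of the 19 unannotated transcripts, 10 shared exon sequence with one of the 4 genes on either strand. By class, 4 were isoforms of the 4 genes, 6 were isoforms of neighbouring genes, 3 were antisense transcripts, of which 2 lay over set-1, and 6 were intergenic. Here an isoform has 1 bp or more of exon in common with annotated exon of its own strand, an antisense transcript only with annotated exon of the other strand, and an intergenic transcript overlaps no annotated span. The 6 intergenic transcripts and the 3 antisense transcripts had 1 exon each. Without an intron, the strand of these 9 rests on the strand kept in the libraries, and its part in the result was not tested.

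**Figure D1:**
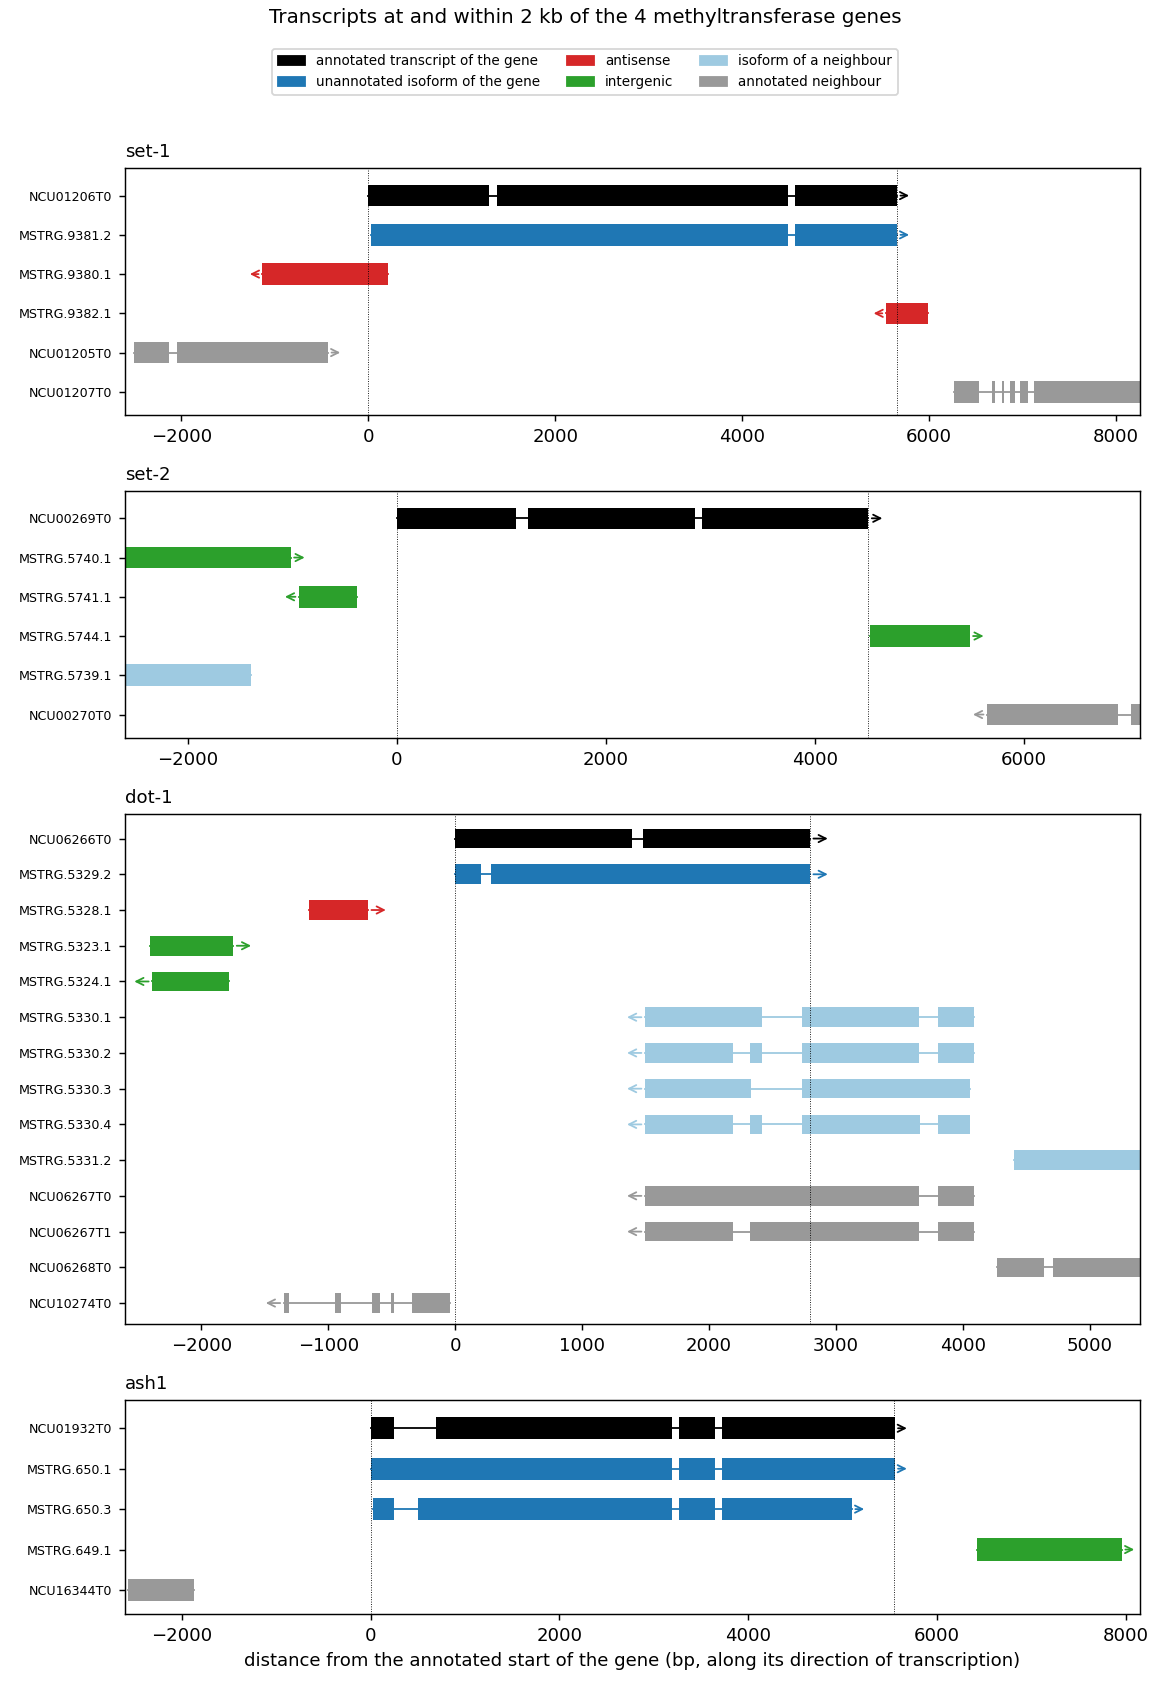
Transcripts at set-1, set-2, dot-1 and ash1 and within 2 kb of them, plotted by distance in bp from the annotated start along the direction of transcription, with exons as boxes, introns as lines and arrows for the direction of each transcript (dotted lines mark the annotated ends, and transcripts cut by the frame run on). The isoforms of the genes themselves keep within the dotted lines, antisense transcripts lie across both ends of set-1, and the 3′ part of dot-1 is covered from the other strand.

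The set-1, dot-1 and ash1 genes, 3 of the 4, had unannotated isoforms, as did 36.4% of all annotated genes and 50.6% of the 2665 genes at least as long as dot-1. The 4 isoforms differed from the annotated transcript mainly inside the gene. None of the 4 passed the annotated 5′ or 3′ end, while isoforms passed the 5′ end in 10.9% and the 3′ end in 9.45% of all genes (isoforms of a single gene only). Among all isoforms that belonged to a single gene, 57.0% likewise lay within the annotated ends.

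The set-1 gene lies on the plus strand of chromosome V (3230443 to 3236098, NC12 supercontig 12.5). Its isoform MSTRG.9381.2 kept intron 1 in the RNA and removed intron 2. Intron 1 is a 78 bp stretch at 3231738 to 3231815, and its retention joined exons 1 and 2 into a single exon. The isoform began 34 bp inside the annotated start, ended at the annotated 3′ end and had 5554 nt in 2 exons. The length of the retained intron is a multiple of 3, as were 2 of the 8 introns of the 4 genes and 33.7% of all annotated introns. The file marks no coding sequence, so the effect of any of these changes on the protein was not tested.

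The dot-1 gene lies on the plus strand of chromosome III (2127490 to 2130283, supercontig 12.3) and has a single annotated intron of 88 bp (2128881 to 2128968). The isoform MSTRG.5329.2 had the same start and end but a different splicing pattern. It kept the annotated intron unspliced and removed instead a 75 bp intron at 2127697 to 2127771, which begins 207 bp from the start of the gene. Neither end of this intron is annotated. Each of the dot-1 transcripts thus had 2 exons and 1 intron, and the introns lay in different places.

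The ash1 gene lies on the minus strand of chromosome I (1970618 to 1976166, supercontig 12.1). Its first intron, at 1975471 to 1975922, is 452 bp long and exceeds 97.3% of the annotated introns in length. This was the intron in which both isoforms differed from the annotation. MSTRG.650.1 kept it unspliced between the annotated ends, which gave a transcript of 5406 nt in 3 exons. MSTRG.650.3 used the same donor site with an acceptor 196 bp earlier, so that the intron measured 256 bp (1975667 to 1975922) and exon 2 became longer by the same 196 bp. This isoform also began 26 bp inside the annotated start and stopped 452 bp short of the annotated 3′ end. Introns 2 and 3 of ash1, with 77 and 66 bp, were spliced out in both isoforms.

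The set-2 gene, on the plus strand of chromosome III (3236473 to 3240984, supercontig 12.3), had no unannotated isoform. Its introns of 113 and 65 bp were both removed in the annotated transcript. Read coverage at the locus is unknown from the annotation, and an isoform below what the libraries could show would be missed.

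Retention of an annotated intron was seen in 3 of the 4 isoforms and at 3 of the 4 genes. Among all isoforms of a single gene, 54.6% kept an annotated intron, and 22.2% of all genes, or 33.7% of those at least as long as dot-1, had such an isoform. These shares include genes with 1 exon (18.0% of all genes), which have no intron to keep, whereas all 4 genes have introns. By intron, 3 of the 8 introns of the 4 genes were kept unspliced in an isoform, against 14.5% of the 14643 introns in genes with 1 annotated transcript. The retained introns of set-1 and ash1 were those nearest to the 5′ end, and that of dot-1 is the only intron of its gene. In the 3 genes with 2 or more introns, the first intron was retained in 2 cases, set-1 and ash1, and none of the 4 later introns was retained. Over all genes with 1 annotated transcript and 2 or more introns, 20.5% of first introns and 12.1% of later introns were retained. With 8 introns no test was made of this difference. As the plot of intron lengths shows, most introns that were not retained were shorter than the retained ones. The retained introns had 78, 88 and 452 bp, and those of 65, 66, 68 and 77 bp were not retained. The 113 bp intron of set-2, a gene without an unannotated isoform, was not retained either. In set-1 and ash1 the retained first intron was also the longest of its gene, so position and length cannot be told apart there. Over all genes with 1 annotated transcript, the median length was 80 bp for retained introns and 75 bp for the others. Whether these transcripts are mature RNA or RNA not yet spliced was not tested. The libraries were made from total RNA depleted of ribosomal RNA.

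**Figure D2:**
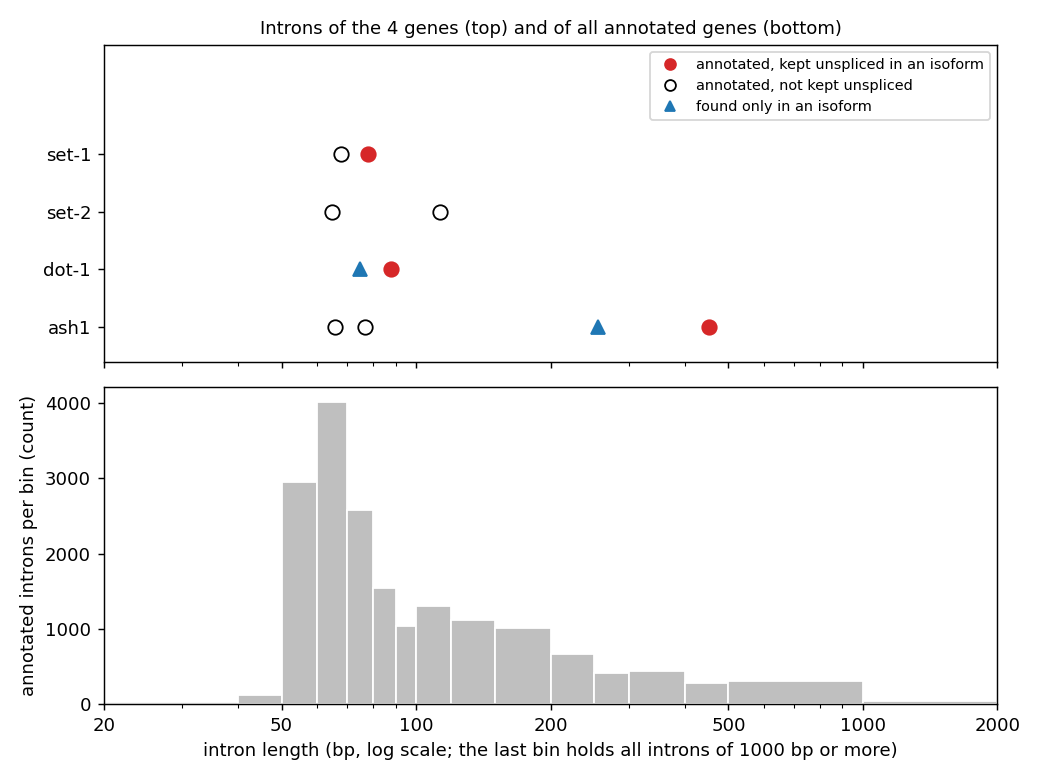
Intron lengths in bp on a log axis, for the 4 genes in the upper panel (circles for annotated introns, triangles for introns found only in an isoform) and as the number per bin for all 17854 annotated introns in the lower panel, where bins differ in width. Filled circles mark introns kept unspliced in an isoform, and the 452 bp intron of ash1 stands far to the right of the other annotated introns of these genes, which lie between 65 and 113 bp.

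Antisense transcripts were assembled over set-1 alone among the 4 genes, where 21.2% of all annotated genes had one (21.7% of those at least as long as dot-1). The 2 antisense transcripts of set-1 lay at its opposite ends and left the body of the gene free. Whether they were assembled from the 4 Δset-1 libraries, from the other 8 or from both is not recorded in the annotation. MSTRG.9380.1 (minus strand, 3229309 to 3230659, 1351 nt) began 216 bp inside set-1, overlapped exon 1 by 217 bp and ran away from the gene. It crossed the whole 429 bp gap to the upstream neighbour NCU01205 and covered 705 bp of the 3′ part of that gene, so that it was head-to-head with set-1 and tail-to-tail with NCU01205. MSTRG.9382.1 (minus strand, 3235981 to 3236429, 449 nt) covered the last 118 bp of set-1 and reached 331 bp beyond its 3′ end. Its start lay 279 bp before that of the downstream gene vma-1 (NCU01207), which encodes the catalytic subunit of the vacuolar ATPase and is transcribed away from it. Both overlaps were short. Over all 2613 pairs of an antisense transcript and a gene, the median overlap was 450 bp. The overlap was smaller than 217 bp in 21.4% of the pairs and smaller than 118 bp in 9.26%. Together the 2 transcripts covered 335 bp, or 6.08%, of the exon sequence of set-1.

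At dot-1 the opposite strand was covered by an annotated gene and not by antisense transcripts as defined here. NCU06267 (minus strand, 2128985 to 2131578) meets dot-1 tail-to-tail and shares 1299 bp of exon with it. This was 48.0% of the exonic length of dot-1 and 98.8% of its exon 2. Among the 1087 pairs of annotated genes that share exon on opposite strands, 90.3% shared less, and the median was 167 bp. An annotated neighbour of this kind was found for dot-1 alone among the 4, and for 21.9% of all genes. NCU06267 had 4 unannotated isoforms, all of which reached into dot-1 and shared 850 to 987 bp of exon with it. They shared less than the annotated transcripts of NCU06267, with 1162 and 1299 bp, because they lacked a piece of 312 bp (2129909 to 2130220, in MSTRG.5330.1, MSTRG.5330.2 and MSTRG.5330.4) or of 401 bp (2129820 to 2130220, in MSTRG.5330.3) as an intron. In MSTRG.5330.2 and MSTRG.5330.4 the annotated 137 bp intron of NCU06267 was also spliced out. Both long introns are absent from the annotation and lie over exon 2 of dot-1, and they share the end at 2130220. All of the RNA assembled over dot-1 from the other strand thus belonged to NCU06267. All 6 of its transcripts ended at 2128985, which left 16 bp between this 3′ end and the intron of dot-1.

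When both kinds of overlap were counted, exon of set-1 and dot-1 was shared with a transcript of the other strand, as was exon of 42.7% of all genes. A transcript of the other strand lay across the 3′ end of the same 2 genes and of 32.7% of all genes. The exons of set-2 and ash1 had no cover from the other strand at any base.

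Starts of transcription on the other strand were next looked for near the start of each gene, with a window of 500 bp that was chosen after the values were seen. Such a start was found at 3 of the 4 genes and at 35.1% of all genes, and it came from a different class of transcript in each case. At dot-1 it was the annotated gene NCU10274 (minus strand, 2126140 to 2127451), with 38 bp between both starts. Of 1480 divergent pairs of annotated genes with up to 1000 bp between their starts, 0.946% were closer, and the median distance was 371 bp. At set-1 it was the antisense transcript MSTRG.9380.1, described above. At set-2 it was the intergenic transcript MSTRG.5741.1 (minus strand, 3235538 to 3236091, 554 nt), which began 382 bp upstream. With a window of 250 bp the start at set-2 was lost, which left 2 of the 4 genes and 17.6% of all genes. At ash1 the nearest annotated start on the other strand, that of NCU16344, was 1875 bp away, and that gene was carried over from the reference with no assembled transcript.

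Intergenic transcripts lay near set-2, dot-1 and ash1 and not near set-1, whose antisense transcripts reached into the gaps on both sides. At set-2, 3 were found. MSTRG.5744.1 (plus strand, 3240998 to 3241953, 956 nt) began 13 bp past the annotated 3′ end on the strand of set-2 and stopped 168 bp before the end of the convergent gene NCU00270. Among the 726 pairs of a gene and a same-strand intergenic transcript within 2 kb downstream, 1.65% had a smaller gap, and the median gap was 762 bp. Whether MSTRG.5744.1 is a transcript of its own or a continuation of set-2 was not tested, and no transcript in the file joins both. Upstream of set-2, the already named MSTRG.5741.1 was followed by MSTRG.5740.1 (plus strand, 3233284 to 3235456, 2173 nt), which ended 1016 bp before set-2. It shared 1793 bp with MSTRG.5739.1 on the other strand, an isoform of NCU00268 that passed the annotated start of that gene by 2312 bp. RNA from both strands was thus assembled in the wide upstream gap of set-2.

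A same-strand intergenic transcript within 2 kb downstream was found for set-2 and ash1, and for 6.82% of all genes. At ash1 it was MSTRG.649.1 (minus strand, 1968210 to 1969744, 1535 nt), which began 873 bp past the 3′ end and was the only intergenic transcript near that gene. Its length was above the median of 631 nt for intergenic transcripts. Intergenic transcripts of the other strand within 2 kb upstream were found for set-2 and dot-1, and for 11.6% of all genes. Near dot-1 these were part of a sense and antisense pair, MSTRG.5323.1 (plus strand, 2125087 to 2125741) and MSTRG.5324.1 (minus strand, 2125104 to 2125708), which share 605 bp and lie beyond NCU10274, at 1748 and 1781 bp from dot-1. Between them and dot-1, MSTRG.5328.1 (plus strand, 461 nt) was antisense to NCU10274 with an overlap of 42 bp. Downstream of dot-1, MSTRG.5331.2 was an isoform of NCU06268 that began 1608 bp from dot-1.

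**Figure D3:**
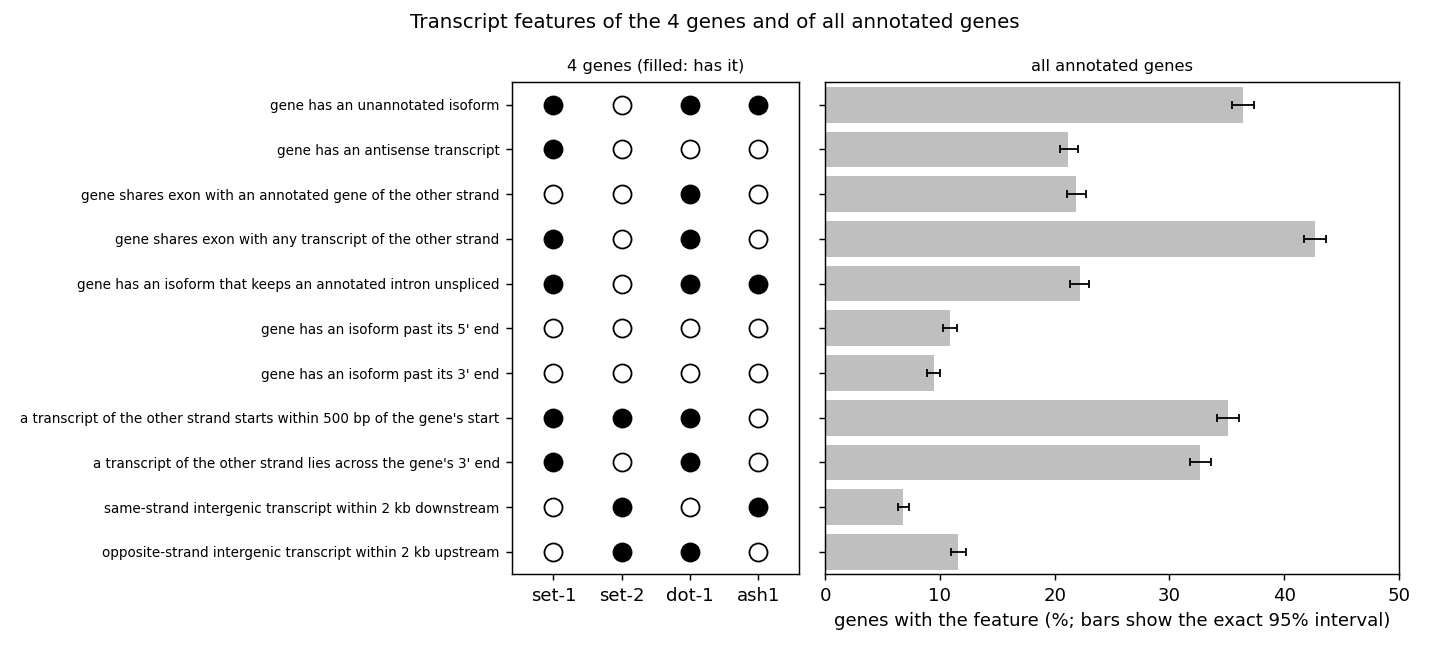
The left panel shows which of the 4 genes have each transcript feature (filled circles), and the right panel the percentage of all 9730 annotated genes that have it, with exact 95% intervals that cover counting error only. Most features were found in at most 2 of the 4 genes, while unannotated isoforms, isoforms that keep an intron and other-strand starts near the gene start were each found in 3.

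The other genes of the RefSeq table with a set symbol, and dim-5, were read in the same way. They are 7 genes, among which dim-5 encodes the H3K9 methyltransferase and set-7 the H3K27 methyltransferase of Polycomb repression. An unannotated isoform was found for 3 of the 4 euchromatic genes, for 5 of these 7 and for 36.4% of all genes. Antisense transcripts were found for 1 of the 4, set-1, for 1 of the 7, set-6, with an overlap of 203 bp, and for 21.2% of all genes. At set-7, MSTRG.115.1 kept both introns in a single exon of 7713 nt and passed the annotated start by 850 bp and the 3′ end by 123 bp. The isoforms of set-8 (206 bp) and set-9 (346 and 443 bp) passed the 3′ end. The isoform MSTRG.7490.2 of dim-5 passed the 3′ end by 4267 bp and shared exon with a second gene on the same strand, as did the isoform MSTRG.4733.1 of set-6, which passed the annotated start by 2295 bp. The dim-5 gene is deleted in the Δdim-5 libraries, and which libraries gave MSTRG.7490.2 is not recorded. The set-4 and set-5 genes had no isoform. Retention of an annotated intron was found for 3 of the 7 genes, set-6, set-7 and set-9, against 22.2% of all genes, with or without introns. The set-4, set-5 and set-8 genes have no annotated intron, so retention could not be found there. Among 5 genes of histones H3 and H4 and their variants, 2 had an isoform, namely hH3v and hH4v, and in both an annotated intron was kept unspliced. An antisense transcript was found for 1 of the 5, hH3, with an overlap of 516 bp. The counts of isoforms and antisense transcripts among the histone genes were near the shares of all genes, and with lists of 7 and 5 genes nothing is read from any of these counts.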

How the data were processed

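Total RNA of 12 libraries was depleted of ribosomal RNA and sequenced as 100 bp paired-end reads. The authors mapped the reads to NC12 with HISAT2 2.1.0, assembled each sample with StringTie 1.3.3b and merged the assemblies with the NC12 annotation. The study states that strand was kept. Groups came from the sample titles. The deposited score column holds a constant written by StringTie or a dot and is no expression level. The authors' deposited file gives positions from 1 on NC12 supercontigs, pooled over libraries, so it holds no value per library and no replicate error, and no test was made. Expression comparisons of the study were not used here.

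Transcripts were classed by shared exon of at least 1 bp, with Python 3.11.15, and all 9730 genes were read in the same way as a background. A retained intron lies wholly inside an exon of an isoform. Counts over introns used genes with 1 annotated transcript. Shares have exact Clopper-Pearson 95% intervals (scipy 1.17.1). RefSeq symbols and chromosomes of NC12 matched 9729 genes by locus tag with equal ends. The code was tested on simulated data and read back all 200 planted transcripts. They were planted on genes with 1 annotated transcript, 2 or more introns and no close neighbour. Crowded loci such as dot-1, and introns absent from the annotation, were therefore not covered by this test. Genes named are the 4 genes, every unannotated transcript and annotated gene within 2 kb, and related genes found by symbol (planned searches by description could not be made, since the table has none). Promoter and protein sequences were not analysed here. The genes and lists were chosen with earlier results of these data known.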

Additional observations from a re-analysis of the deposited data

How the results depend on the processing

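Of 40 alternatives, 29 concerned counts at the 4 genes, and 23 of these stayed within 1.5 times the reported count. Those that did not were as follows. Without a flank, 10 of the 19 unannotated transcripts were left. With transcripts of 2 or more exons only, 10 were left, with 0 antisense and 0 intergenic transcripts. A flank of 1 kb left 3 of the 6 intergenic transcripts. When at least 50% of the exonic length had to be shared, 0 of the 2 antisense transcripts of set-1 was left. The 4 isoforms and 2 introns absent from the annotation were found under every definition tried for them, except that 1 isoform per assembly gene gave 3. Shares of all genes moved beyond their intervals in 9 of 11 alternatives. Without the 824 genes that had no assembled transcript, 39.8% of genes had an isoform and 23.2% an antisense transcript. A window of 1000 bp, added after the data were seen, gave an other-strand start at 3 of the 4 genes and at 51.8% of all genes. No paired analysis was possible because the annotation pools all replicates. For the same reason no replicate could be left out, and the read coverage behind each transcript is not in the file.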
